A study of Mus musculus with 15 samples.

Results

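Transcript levels were compared between 2 groups of cultured mouse mammary epithelial cells, both of which had lost the tumour suppressor p53 and which differed in the retinoblastoma gene. The comparison took 6 of the 15 arrays of the series: 3 labelled p53- Rb- (p53 and rb knocked out, myc wild type) against 3 labelled p53- (p53 knocked out, rb and myc wild type). The cells came from 8-week-old female mice and were harvested while proliferating, and Cre recombinase delivered by adenovirus deleted the genes. Because both groups carry the p53 deletion, the contrast describes Rb deletion on that background. The labels give no promoter for Cre and leave it unsaid if the 3 samples of a group were separate animals, cultures or clones. A p-value here therefore reflects only the spread of such samples, which may be technical. The fit pools that spread over all 15 arrays of the series, including those outside the 6 compared. Of the remaining arrays, 3 held cells with none of the changes (WT), and 3 p53- Myc+ and 3 p53- Rb- Myc+ arrays held cells that also received a MYC retrovirus. The question set by the design is which transcripts change when Rb is lost from cells that already lack p53.

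The retinoblastoma protein, encoded by Rb1, is a pocket protein that binds E2F transcription factors and holds back genes needed for S phase. Cyclin D and cyclin E kinases phosphorylate it and release E2F, and CDK inhibitors oppose those kinases. The related pocket proteins p107 (Rbl1) and p130 (Rbl2) share part of this work. Rb is lost in a share of human breast cancers, often together with p53.

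Levels are given as the deposited array intensity. Changes are differences of log2(intensity + 16) with their standard error, called log2 fold changes, so those of dim genes are understated. A gene is said to have risen or fallen only where limma's 2-sided test, adjusted by Benjamini-Hochberg over 19938 genes, gave a p below 0.05; values are written in replicate order.

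Across genes, r lay between 0.97 and 0.984 for arrays within the p53- group and between 0.974 and 0.989 within the p53- Rb- group. The median intensity was 49.6 to 54.9 in the p53- arrays and 43 to 45.6 in the p53- Rb- arrays, and 7.86% to 11.3% against 12.2% to 15.1% of genes lay below an intensity of 16. The median log2 fold change over all genes was -0.082, and centring each array on its median moved it to 0.099. Arrays inside a group also had an order that ran along the group difference. Among genes that rose, p53- replicate 2 was the highest p53- array in 72.1% (36.8% of all genes), and p53- Rb- replicate 3 was the highest of its group in 70.5% (33% of all genes). Among those that fell, p53- Rb- replicate 3 was the lowest of its group in 68.3%, against 44.4% of all genes, and p53- replicate 3 the highest of its group in 58%, against 36%. The part of these differences in the results was not tested.

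Rb1 itself was measured first, since it is the gene by which the labels of both groups differ. Its intensity was 147, 181 and 157 in the p53- arrays and 52.7, 55.3 and 64.2 in the p53- Rb- arrays. Every p53- Rb- array lay below every p53- array, and Rb1 fell (-1.27 ± 0.16, adjusted p = 1.64e-05). The signal that was left amounted to a mean of 57.4, and the sources used here do not say which part of the gene the probe set reads relative to the deleted part. In WT cells the mean was 92.8, between both groups. In p53- Myc+ arrays, where Rb is wild type, it was 36.4, below the p53- Rb- mean. Across the series the level of this probe set therefore does not tell Rb-deleted from Rb wild-type arrays. Trp53 was not analysed here.

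The change in transcripts was broad. In all, 3950 of 19938 genes passed (19.8%): 1867 rose (9.36%) and 2083 fell (10.4%), of which 331 rose and 440 fell by at least 2-fold. With arrays centred on their medians, 4640 passed and 74.8% of these rose, against 47.3% in the fit used here; with quantile normalization 50.5% did. The count depended on single arrays: 2483 passed without p53- replicate 1, 2130 without p53- replicate 3 and 2098 without p53- Rb- replicate 3. The arrays of both groups did not overlap in 7972 genes (40%), the background against which the lack of overlap in a gene below is to be read. Likewise, each count of list members that rose or fell below stands against the 9.36% and 10.4% of all genes.

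The 12 highest risers included an epithelial mucin, microfibril proteins and acute-phase proteins. Muc1, a membrane mucin of the apical surface of secretory epithelium, read 19.4, 24.5 and 12.8 in the p53- arrays and 529, 485 and 477 in the p53- Rb- arrays. It rose by the most of all 12 risers named here (3.89 ± 0.19, adjusted p = 1.93e-11), and the p53- arrays lay near the added constant while the WT mean was 375. Serping1, the C1 inhibitor that restrains complement and contact activation, read 139.8, 167 and 131 in the p53- arrays and 987, 951 and 1576 in the p53- Rb- arrays (2.84 ± 0.18, adjusted p = 1.08e-09). Both groups of 3 arrays were far apart, with p53- Rb- replicate 3 above the others of its group. Lbp, which carries lipopolysaccharide to its receptor, rose (2.48 ± 0.22), as did Hp, the haemoglobin scavenger haptoglobin (2.41 ± 0.19), and Serpina3n, a secreted protease inhibitor (2.67 ± 0.23). Serpina3n showed the same uneven p53- Rb- group, with 277, 293 and 664 in its 3 arrays. WT means were 669 for Serping1, 466 for Lbp, 357 for Hp and 287 for Serpina3n.

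Other high risers were of mixed function. Scnn1a, the alpha subunit of the epithelial sodium channel, read 38.6, 63.04 and 31.8 in the p53- arrays and 358, 339 and 352 in the p53- Rb- arrays (2.63 ± 0.20), without overlap. D17H6S56E-5, a gene of the major histocompatibility region, rose (3.04 ± 0.15) from a p53- mean of 251 to 2165, and its WT mean was 218. Ndufa4l2, a mitochondrial protein known to be induced by low oxygen, rose by 2.56 ± 0.20, and Mia, a small secreted protein, by 2.19 ± 0.17. Together with Mfap4, Mfap5 and Col15a1, described with the matrix, these complete the 12 highest among genes not below the median level without overlap between the arrays.

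The 12 lowest genes were chosen by the same rule. Atrx, a chromatin remodeller that deposits histone H3.3, read 377, 363 and 479.6 in the p53- arrays and 92.2, 148 and 69.6 in the p53- Rb- arrays (-1.87 ± 0.25, adjusted p = 2.07e-05). Malat1, an abundant nuclear long noncoding RNA, read 1340.0, 1541 and 1766 in the p53- arrays and 367, 515 and 367 in the p53- Rb- arrays (-1.86 ± 0.21). The p53- Rb- arrays were well below in both, and replicate 2 was the highest of them. Rock1, a kinase of actomyosin contraction, fell (-1.91 ± 0.25), and so did Ube2v2, a ubiquitin-conjugating enzyme variant of DNA damage tolerance (-2.05 ± 0.23), Esf1, a nucleolar protein (-2.01 ± 0.19), Resf1 (-1.97 ± 0.20) and Mir100hg, the host transcript of a microRNA cluster (-1.99 ± 0.26). Hells is described with replication. Ifi202b, an interferon-inducible gene that is not on the interferon list used here, fell (-2.12 ± 0.23), as did Slfn9 (-1.997 ± 0.17) and Samd9l (-1.87 ± 0.23). Mid1, a microtubule-associated ubiquitin ligase, had the lowest fold change but the most uneven group: 244, 259.6 and 243 in the p53- arrays and 1.87, 6.23 and 135 in the p53- Rb- arrays (-2.76 ± 0.45, adjusted p = 0.000184). Only replicate 3 of the p53- Rb- group approached the p53- level.

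**Figure D1:**
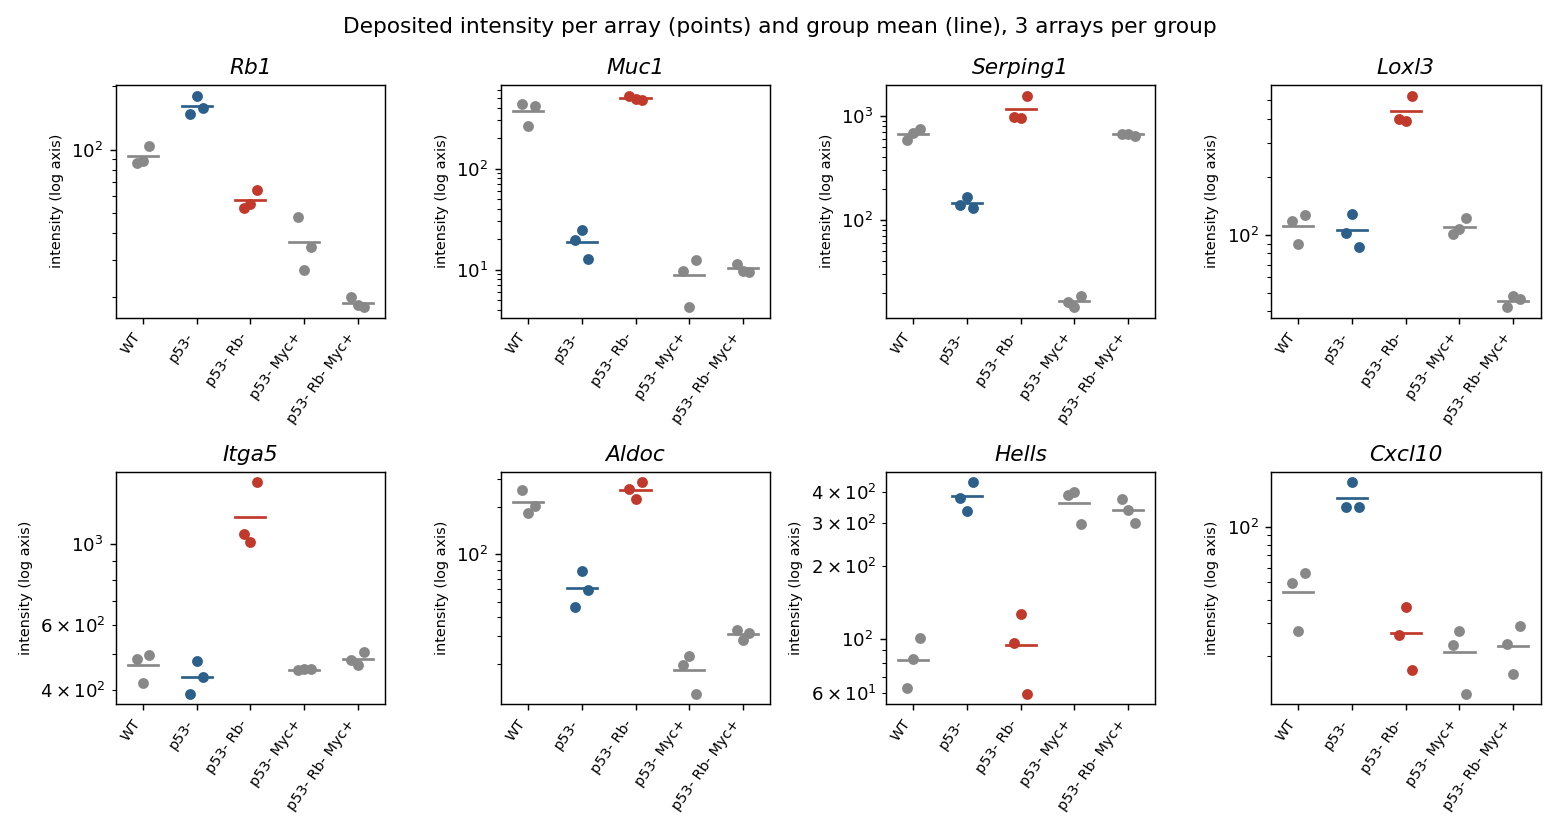
Deposited intensity (log axis) of 8 genes in each of the 15 arrays, with 3 points and a line at the mean for each group; p53- arrays are blue, p53- Rb- arrays red and the rest grey. Muc1 read 12.8 to 24.5 in p53- and 477 to 529 in p53- Rb- arrays, while Hells and Cxcl10 were lower in every p53- Rb- array than in any p53- array.

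Members of the Rb and E2F machinery were read beside Rb1. Of 18 measured genes for Rb family proteins, E2F and DP factors and the MuvB complex, 1 rose and 1 fell. This is 11.1%, against 19.8% of all genes, and with so few genes it is not read as a trait of the list. The median was -0.053, against -0.082 over all genes. The 1 that fell was Rb1. The 1 that rose was Rbl2, the pocket protein p130, which read 36.2, 57.9 and 46.96 in the p53- arrays and 64.6, 76.9 and 79.4 in the p53- Rb- arrays (0.52 ± 0.18, adjusted p = 0.0489). That call was lost when any 1 of 5 of the 6 arrays was left out, p53- replicate 2 being the exception. Rbl1, which encodes p107 and is a known E2F target, read 99.6, 98.3 and 103 in the p53- arrays and 84.3, 109.6 and 75.8 in the p53- Rb- arrays, with overlapping groups (-0.15 ± 0.16, adjusted p = 0.543). E2f1, the activator best known for driving S-phase entry, had a log2 fold change of 0.31 ± 0.19, adjusted p = 0.274, E2f2 of 0.30 ± 0.19, adjusted p = 0.273 and E2f3 of -0.03 ± 0.18, adjusted p = 0.924, and none passed.

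The G1 and S-phase cyclins, their kinases and the CDK inhibitors gave 3 risers and 1 faller among 17 measured, with a median of 0.185. The 23.5% that passed is near the 19.8% of all genes. Cdkn2c, which encodes the CDK4 and CDK6 inhibitor p18 and is a known E2F target, read 76.01, 70.8 and 87.4 in the p53- arrays and 120.0, 138 and 160.0 in the p53- Rb- arrays (0.72 ± 0.16, adjusted p = 0.00375). All p53- Rb- arrays were above all p53- arrays; the adjusted p was 0.0571 with both p53- replicate 2 and p53- Rb- replicate 3 left out, which was decided after seeing the data. Ccnd2, cyclin D2, read 429, 540.4 and 443 in the p53- arrays and 699, 789.5 and 749 in the p53- Rb- arrays (0.65 ± 0.16). Cdkn1c, the inhibitor p57, rose slightly (0.49 ± 0.17, adjusted p = 0.0434), a call lost when any single one of the 6 arrays was left out. Ccne2, cyclin E2, went the other way: it read 147, 99.3 and 152 in the p53- arrays and 43.5, 61.3 and 33.4 in the p53- Rb- arrays and fell (-1.26 ± 0.20, adjusted p = 0.000126). Cyclin E1 (Ccne1) had 0.42 ± 0.19, adjusted p = 0.13, cyclin D1 (Ccnd1) -0.18 ± 0.18, adjusted p = 0.502, and Cdkn2a, the locus of p16 and p19Arf, 0.10 ± 0.19, adjusted p = 0.746. None of these passed.

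Genes of DNA replication moved both ways. Among 24 measured origin licensing and firing genes, 5 rose and 3 fell, with a median of 0.127. Among 30 polymerase and fork genes 5 rose and 2 fell, with a median of 0.253. The share of fork genes that passed, 23.3%, is near the 19.8% of all genes, and that of licensing genes was 33.3%. Rises lay between 0.42 and 0.62 and falls between -1.90 and -0.57. The list members with small p are described first, and those that only complete a count of 5 or fewer, here Mcm2 and Mcm3 (0.46 ± 0.16 and 0.49 ± 0.15) and the fork genes Rpa2 and Pole2 (0.42 ± 0.14 and 0.44 ± 0.15), all 4 risers, were named after their values were seen. Hells, a helicase that opens chromatin for DNA methylation, read 379, 334 and 439 in the p53- arrays and 96.2, 127 and 59.8 in the p53- Rb- arrays (-1.90 ± 0.21, adjusted p = 2.98e-06). Pola1, the catalytic subunit of the primase polymerase, read 238, 309 and 256 in the p53- arrays and 101, 131 and 95.9 in the p53- Rb- arrays (-1.18 ± 0.23), and Orc4, an origin recognition subunit, 255, 246 and 369 in the p53- arrays and 99.6, 134 and 74.5 in the p53- Rb- arrays (-1.37 ± 0.19). In each of these the groups did not overlap. Orc2, also of the origin recognition complex, fell by 0.59 ± 0.17, and Dbf4, which activates the origin-firing kinase, by 0.57 ± 0.16.

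The replication risers included parts of the helicase and genes of the clamp, ligation and chromatin assembly steps. Mcm5, of the replicative helicase, read 171, 190.0 and 227 in the p53- arrays and 327, 323 and 260.3 in the p53- Rb- arrays (0.59 ± 0.16, adjusted p = 0.0131). Gins2, of the GINS helicase cofactor, rose by 0.56 ± 0.16, Lig1, the ligase that joins Okazaki fragments, by 0.60 ± 0.17, Chaf1b, of the chromatin assembly factor, by 0.52 ± 0.16, and Rfc2, of the clamp loader, by 0.62 ± 0.19. Counts of risers rested on single arrays, and each of these 5 genes and of Mcm2, Mcm3, Rpa2, Pole2, Orc2 and Dbf4 lost its call without at least 1 of the 6 arrays. Of the licensing genes, 0 rose without p53- replicate 1 or p53- Rb- replicate 1, 2 without p53- Rb- replicate 2 or 3, and 3 without p53- replicate 3. For the fork genes, 0 rose without p53- Rb- replicate 3, 1 without p53- replicate 1 or 3 or p53- Rb- replicate 1, and 3 without p53- Rb- replicate 2, while 12 rose once arrays were centred. Of the licensing genes 1 fell without p53- replicate 3 or p53- Rb- replicate 3, or once arrays were centred.

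Upstream sequence of 4 of these genes is shown because the E2F word, the DNA sequence through which Rb is known to act, was present both in genes that rose and in genes that fell. The stretches come from RefSeq promoters on GRCm38.p6, cut from the 250 bases before the transcript start, 5′ to 3′ on the gene's strand, with capitals marking the words TTTCCCGC, TTTGGCGC, TTTCGCGC or TTTGCCGC on either strand; where 2 words overlap, the capitals run through both. Mcm6, another helicase subunit, rose by 0.55 ± 0.19 and was chosen for its sites after its value was seen; its call was lost when any 1 of 5 of the 6 arrays was left out, p53- replicate 3 being the exception. They are Mcm5 at chr8:75109316-75109407 (+), Mcm6 at chr1:128359706-128359855 (-), Hells at chr19:38930888-38930975 (+) and Pola1 at chrX:93632246-93632333 (-).
Mcm5: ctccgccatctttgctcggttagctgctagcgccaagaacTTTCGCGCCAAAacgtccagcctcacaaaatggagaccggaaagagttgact
Mcm6: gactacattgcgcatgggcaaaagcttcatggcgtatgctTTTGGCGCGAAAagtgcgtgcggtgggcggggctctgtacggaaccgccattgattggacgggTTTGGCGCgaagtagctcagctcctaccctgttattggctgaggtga
Hells: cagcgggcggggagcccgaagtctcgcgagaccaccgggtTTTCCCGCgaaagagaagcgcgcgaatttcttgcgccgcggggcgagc
Pola1: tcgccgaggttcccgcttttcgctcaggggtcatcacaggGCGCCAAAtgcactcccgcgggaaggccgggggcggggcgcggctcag

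In this window 449 of 15614 genes with a promoter entry held an E2F word (2.88%). It was present in 53 of 1468 risers (3.61%) and in 53 of 1641 fallers (3.23%). Licensing genes held it in 7 of 19, among them 2 of 4 risers and 0 of 3 fallers with a window, and fork genes in 5 of 26, among them 0 of 4 risers and 2 of 2 fallers. Over all genes with the word the median log2 fold change was 0.053, and over those without it -0.078. A match is a description of the letters, and no match says only that these words are not in this window.

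Mitotic genes also moved both ways. Of 37 measured, 7 rose (18.9%, against 9.36% of all genes) and 10 fell (27%, against 10.4%), with a median of 0.048. The fallers named by their small p were the condensin subunits Smc4 and Smc2, the kinetochore motor Cenpe, the kinetochore protein Cenpf and the spindle checkpoint kinase Bub1. Smc4 read 786, 647 and 853 in the p53- arrays and 265, 324 and 191 in the p53- Rb- arrays (-1.52 ± 0.19, adjusted p = 1.14e-05). Cenpe read 469.9, 441 and 552 in the p53- arrays and 133, 199.5 and 80.4 in the p53- Rb- arrays (-1.78 ± 0.27), and in both the p53- Rb- replicate 3 array was the lowest. Smc2 fell by 1.58 ± 0.23, Cenpf by 1.56 ± 0.28 and Bub1 by 1.16 ± 0.18. The risers, at 0.45 to 0.64, included no gene of the 5 with the smallest p. Without p53- Rb- replicate 3 there were 6 fallers, and without p53- replicate 1 or 3 or p53- Rb- replicate 2 or 3 there were 3 risers, and 2 without p53- Rb- replicate 1.

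Among 22 DNA damage checkpoint and repair genes none rose and 6 fell (0 higher and 7 lower at an unadjusted p under 0.05), with a median of -0.192. Atr, the kinase that senses stalled forks, read 98.6, 96.6 and 121 in the p53- arrays and 36.2, 49.9 and 34.8 in the p53- Rb- arrays (-1.11 ± 0.25, adjusted p = 0.00312). Chek1, the kinase it activates, fell (-0.86 ± 0.19), and so did Blm, a helicase that resolves recombination intermediates (-0.71 ± 0.19), Rad50, of the complex that senses DNA breaks (-0.81 ± 0.23), and Brca2, of recombination repair (-0.87 ± 0.26). The calls of Blm, Rad50 and Brca2 were lost without p53- replicate 3 or p53- Rb- replicate 3, and that of Brca2 also without p53- Rb- replicate 1. Without p53- replicate 3 or p53- Rb- replicate 3, 2 of the 22 fell, and without p53- replicate 2 and p53- Rb- replicate 3 together 1 did; with arrays centred 4 fell and 1 rose. Of 18 nucleotide synthesis genes, Ppat, the first enzyme of purine synthesis, fell (-0.49 ± 0.16, adjusted p = 0.0329) and none rose; that call was lost without p53- replicate 1 or 3 or p53- Rb- replicate 1 or 3.

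Nucleolar genes of ribosome biogenesis gave 6 fallers (20.7%) and 0 risers among 29 (8 lower and 1 higher unadjusted), with a median of -0.046. Nop58, a core protein of box C/D snoRNPs, read 903, 704 and 968 in the p53- arrays and 355, 424 and 289 in the p53- Rb- arrays (-1.24 ± 0.18), and Ncl (-0.76 ± 0.17) and Npm1 (-0.71 ± 0.16), which encode the nucleolar proteins nucleolin and nucleophosmin, fell less. Ddx10 and Gnl3 completed the 5 with the smallest p, at -0.78 ± 0.20 and -0.68 ± 0.17. Without p53- replicate 3 or p53- Rb- replicate 3, the calls of Ddx10 and Gnl3 were lost and 3 of the 29 fell, and with arrays centred 5 fell and 2 rose.

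Genes known to be activated by p53 could be read in cells that lacked it on both sides of the comparison. Of 28 measured, 6 rose (21.4%) and 4 fell (14.3%), with a median of 0.095. Ak1, adenylate kinase, read 95.9, 116 and 82.8 in the p53- arrays and 404, 387 and 563 in the p53- Rb- arrays (2.02 ± 0.20, adjusted p = 8.37e-07), without overlap and with a WT mean of 374. Pmaip1, which encodes the pro-apoptotic protein Noxa, read 176, 161 and 222 in the p53- arrays and 81.3, 88.1 and 35.4 in the p53- Rb- arrays (-1.32 ± 0.22). Psrc1 rose (0.92 ± 0.16), whereas Trp53inp1 (-1.17 ± 0.22) and the translesion polymerase Polk (-0.74 ± 0.17) fell, as did Rrm2b, a ribonucleotide reductase subunit (-0.65 ± 0.16). The 6 risers were 3 without p53- replicate 1 or 3 or p53- Rb- replicate 3.

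Genes of the extracellular matrix rose in several lists. Enzymes and chaperones of collagen processing rose in 15 of 22 measured, and 1, the prolyl hydroxylase P3h2, fell (-0.64 ± 0.19); the median was 0.914. Elastic fibre, microfibril and fibulin genes rose in 10 of 18, with 0 fallers, also unadjusted, and a median of 0.716. Collagen chains rose in 15 of 37, with 1 faller, Col7a1 (-0.66 ± 0.18), and a median of 0.233. For the risers of these 3 lists, no single array changed the count by more than 1.5 times, and over all alternatives the counts ranged from 14 to 15, from 8 to 12 and from 12 to 18.

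The enzymes act at successive steps. P4ha2, a prolyl hydroxylase that stabilises the triple helix, rose by 1.31 ± 0.17, and Plod1, a lysyl hydroxylase, read 149.6, 229 and 155 in the p53- arrays and 469.7, 476 and 762 in the p53- Rb- arrays (1.58 ± 0.19). Pcolce, which enhances removal of the procollagen C-terminal propeptide, read 304, 396 and 262 in the p53- arrays and 809, 792 and 1385 in the p53- Rb- arrays (1.56 ± 0.19). The crosslinking oxidases Loxl3 and Loxl1 rose by 1.91 ± 0.17 and 1.69 ± 0.22. Loxl3 read 102, 129 and 86.8 in the p53- arrays and 401, 389 and 528 in the p53- Rb- arrays (adjusted p = 2.54e-07). In all 3 genes whose arrays are given, p53- replicate 2 was the highest p53- array and p53- Rb- replicate 3 the highest p53- Rb- array, with a gap between the groups.

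The 5 collagen chains with values here are among the 15 of 37 that rose. Col1a1, the main chain of type I collagen, read 537, 545 and 535 in the p53- arrays and 1334, 1516 and 1586 in the p53- Rb- arrays (1.43 ± 0.16, adjusted p = 2.77e-06), without overlap and with little spread within the p53- group. Col1a2, its partner, rose by 1.41 ± 0.16, Col3a1, of type III collagen, by 1.39 ± 0.16, and Col6a1, of beaded type VI collagen, by 1.85 ± 0.19. Col15a1, of a basement membrane zone collagen, read 15.3, 24.4 and 31.2 in the p53- arrays and 147, 149 and 193 in the p53- Rb- arrays (2.19 ± 0.23).

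Of the microfibril genes, Mfap4 read 27.3, 17.5 and 32.9 in the p53- arrays and 286, 253 and 531 in the p53- Rb- arrays (3.10 ± 0.24, adjusted p = 2.66e-08). Mfap5, which binds fibrillin, read 261, 431 and 279 in the p53- arrays and 1667, 1554 and 2534 in the p53- Rb- arrays (2.51 ± 0.22). The elastic fibre proteins fibulin 5 (Fbln5) and Emilin2 rose by 1.46 ± 0.21 and 1.56 ± 0.27, and fibulin 1 (Fbln1) by 1.34 ± 0.17. Among 19 matricellular and adhesive glycoproteins 6 rose and 1, Ccn3, fell (-0.76 ± 0.25), with a median of 0.318. The risers with the smallest p were Ccn5 (1.49 ± 0.17), Thbs2, which encodes thrombospondin 2 (1.37 ± 0.16), Sparcl1 (1.48 ± 0.19), Ccn4 (1.07 ± 0.16) and the collagen-binding protein Sparc (0.90 ± 0.14). Proteoglycans were mixed among 15 measured, with 3 risers (20%), Bgn (biglycan, 1.02 ± 0.16), Hspg2 (perlecan, 0.77 ± 0.18) and Prelp (0.76 ± 0.21), and 2 fallers (13.3%), Fmod (-0.59 ± 0.21) and Omd (-0.48 ± 0.16). Both falls were lost when any 1 of 5 of the 6 arrays was left out, p53- replicate 2 being the exception, and when arrays were centred; the rise of Prelp was lost without p53- replicate 1 or p53- Rb- replicate 1 or 3.

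Proteases and receptors of the matrix also moved. Of 24 metalloproteinases, ADAMTS proteases and TIMPs, 9 rose and 2 fell, Mmp12 (-0.64 ± 0.19) and Mmp16 (-0.57 ± 0.19), with a median of 0.287. Mmp2, gelatinase A, read 248, 269 and 243 in the p53- arrays and 563, 624 and 887 in the p53- Rb- arrays (1.37 ± 0.17, adjusted p = 1.19e-05), without overlap. Mmp19, the membrane-bound Mmp14, which activates Mmp2, and Mmp11 rose by 1.27 ± 0.20, 0.72 ± 0.15 and 1.08 ± 0.24, and Timp2, an inhibitor that also takes part in Mmp2 activation, by 0.82 ± 0.17. Integrins and laminins gave 10 risers and 3 fallers among 29. Itga5, the alpha chain of the fibronectin receptor, read 391, 479.8 and 434 in the p53- arrays and 1062, 1012 and 1474 in the p53- Rb- arrays (1.40 ± 0.16, adjusted p = 5.78e-06), and Itgb5 rose by 1.03 ± 0.18. Itga2, the alpha chain of a collagen receptor of epithelium, fell, reading 1404, 1277 and 1425 in the p53- arrays and 686, 745 and 443 in the p53- Rb- arrays (-1.14 ± 0.18), as did Itgav (-0.50 ± 0.16) and the laminin chain Lama3 (-0.79 ± 0.22). The laminin chains Lama4 and Lama2 rose by 1.11 ± 0.17 and 0.98 ± 0.19. Falls on the matrix lists depended on single arrays: without p53- replicate 3 or without p53- Rb- replicate 3, 0 collagens, 0 collagen processing genes, 0 matricellular genes and 0 metalloproteinases fell, and 1 integrin or laminin did. Without p53- replicate 1, 0 matricellular genes and 0 metalloproteinases fell, and without p53- Rb- replicate 1, 0 and 1.

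Markers of other cell types were read beside the matrix genes. The fibroblast list rose in 10 of 23 members with 0 fallers (2 lower unadjusted) and a median of 0.388, and its summed intensity was 4586 to 4956 in the p53- arrays and 7374 to 10160.0 in the p53- Rb- arrays. It shares 7 members with the matrix lists: Mfap5, Fbln1, Loxl1, Col14a1, Dcn, Lum and Postn. Of its defining markers, Pdgfrb read 212, 306 and 218 in the p53- arrays and 627, 662 and 906 in the p53- Rb- arrays (1.52 ± 0.19), Pdgfra rose by 0.86 ± 0.19 and Dpt by 0.93 ± 0.20, while Thy1 had -0.45 ± 0.20, adjusted p = 0.11. Endothelial markers rose in 5 of 18 with 0 fallers (2 lower unadjusted), at sums of 1106 to 1248 and 1476 to 1535; Cdh5 rose by 1.04 ± 0.18 and Pecam1 by 0.84 ± 0.19, to a p53- Rb- mean of 57.2, and Eng, Sox18 and Egfl7 were the other 3. Leukocyte markers gave 3 risers and 2 fallers of 23 (sums 1783 to 2502 and 1717 to 1782), namely Lyz2, C1qc and Laptm5 against S100a8 and S100a9, and adipocyte markers 1 riser and 2 fallers of 14 (sums 1213 to 1263 and 1341 to 1489), Lpl against Lep and Cd36. Of these and the endothelial genes, Laptm5, S100a9, Lep, Cd36 and Sox18 lost their calls without at least 1 of the 6 arrays. The shares that passed on these 2 lists, 21.7% and 21.4%, are near the 19.8% of all genes. The files hold no value of 0, so the absence of zeros says nothing of these cell types; Ptprc, the common leukocyte antigen, had means of 43.1 and 25.8, and Adipoq, the adipocyte hormone adiponectin, 40.3 and 31.7, and neither passed. In bulk RNA, more cells of a type and more RNA per cell cannot be told apart, and the part of these markers in the matrix results was not tested.

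**Figure D2:**
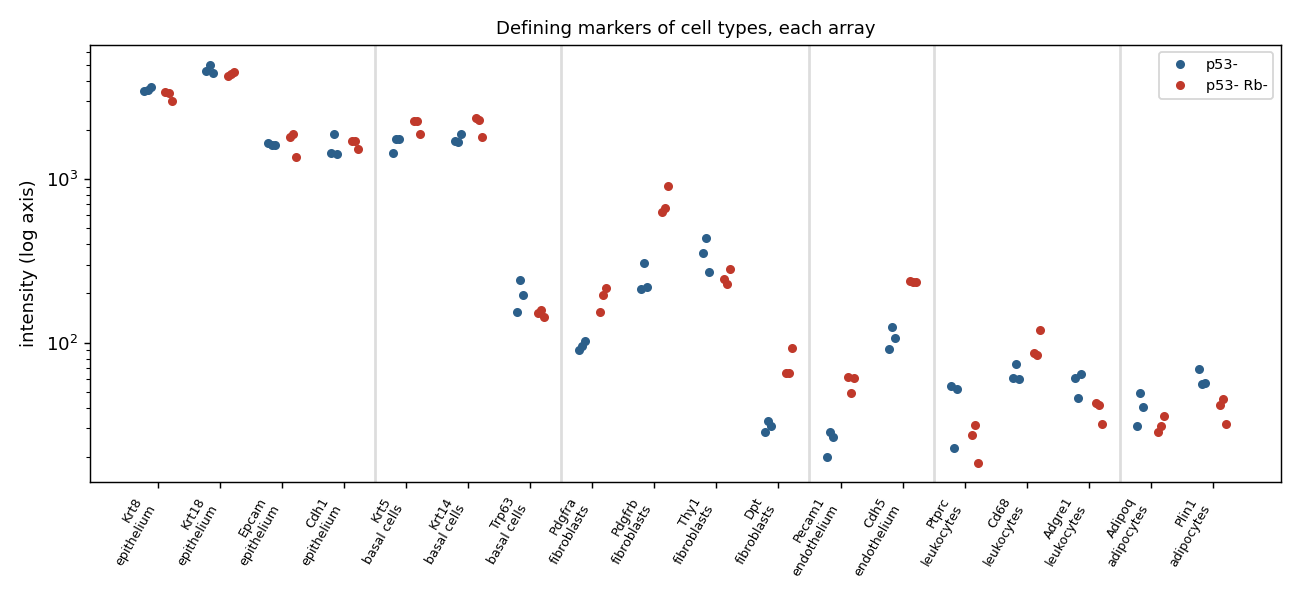
Intensity (log axis) of the defining markers of 6 cell types in each p53- array (blue) and p53- Rb- array (red). Krt18, Epcam and Cdh1 overlap between the groups and Krt8 is slightly lower in every p53- Rb- array without passing, whereas Pdgfra, Pdgfrb and Dpt of fibroblasts and Pecam1 and Cdh5 of endothelium are higher in every p53- Rb- array.

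Epithelial identity was measured with the labelled cell type in view. Krt8, Krt18, Epcam and Cdh1, the defining markers of epithelium, read 1371 or more on each of the 6 arrays, with Epcam at 1672, 1615 and 1616 in the p53- arrays and 1799, 1877 and 1371 in the p53- Rb- arrays (0.03 ± 0.17, adjusted p = 0.925). None of 16 keratins passed, with a median of -0.012, and Krt5 had 0.37 ± 0.18, adjusted p = 0.157; after centring, 5 keratins rose. At an unadjusted p under 0.05, 4 keratins were higher and 0 lower. Because the fit pools the spread of all 15 arrays, uneven low readings with Myc+ can widen the standard error of a gene. Krt8 had -0.12 ± 0.32, and its p53- Myc+ arrays read 86.05, 9.447 and 55.42. That Krt8 did not pass is therefore weak evidence of no change. The standard error was smaller for Krt18 and Epcam (0.17 each), Cdh1 (0.16) and Krt5 (0.18). For these too, the lack of a call does not show that the level stayed the same. Of 27 tight junction and desmosome genes none rose (1 higher unadjusted) and 2 fell, the tight junction protein Cldn1 (-0.69 ± 0.18) and the desmosomal cadherin Dsc2 (-0.56 ± 0.19), and both calls were lost when arrays were centred. Dsc2 was also lost without p53- replicate 1, 2 or 3 or p53- Rb- replicate 1 or 3.

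Genes of the luminal and basal layers were mixed. Elf5, a factor of milk-producing luminal progenitors, read 45.9, 35.8 and 23.7 in the p53- arrays and 103, 98.2 and 92.5 in the p53- Rb- arrays (1.18 ± 0.23, adjusted p = 0.000967), and Prom1 and Kit rose by 0.85 ± 0.16 and 0.60 ± 0.19. Wnt4, a paracrine mediator of progesterone, fell (-0.67 ± 0.20), and 15 of 19 luminal genes did not pass; the 21.1% that did is near the 19.8% of all genes. Kit and Wnt4 lost their calls without p53- replicate 1 or 3 or p53- Rb- replicate 3, Kit also without p53- Rb- replicate 2 and Wnt4 without p53- Rb- replicate 1. Of 20 basal and myoepithelial genes 7 rose and 2 fell, Procr (-0.98 ± 0.23) and Nrg1 (-0.58 ± 0.16). The 5 with the smallest p were the contractile genes Myl9 (1.13 ± 0.16), Cnn1 (1.36 ± 0.21), Acta2 (0.92 ± 0.18) and Actg2 (1.25 ± 0.25) and the neural crest and mammary epithelial factor Sox10 (1.03 ± 0.21). Cnn1, which encodes calponin, read 262, 440.2 and 264 in the p53- arrays and 829, 724 and 938 in the p53- Rb- arrays. Contractile genes are also expressed by myofibroblasts, and the basal defining markers Krt5, Krt14 and Trp63 did not pass.

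Secretory genes gave 6 risers and 4 fallers among 24. Beside Muc1, the whey acidic protein family member Wfdc18 read 694, 1494 and 397 in the p53- arrays and 2839, 2551 and 3775 in the p53- Rb- arrays (1.99 ± 0.29, adjusted p = 5.37e-05), with a wide p53- group. Saa3, an acute-phase serum amyloid of epithelium, rose by 1.61 ± 0.25 and Muc20 by 0.93 ± 0.17. Muc4, a membrane mucin that binds ErbB2, fell, reading 84.8, 70.2 and 106 in the p53- arrays and 22.5, 26.4 and 21.5 in the p53- Rb- arrays (-1.37 ± 0.19), and so did Glycam1 (-0.84 ± 0.18), Btn1a1 (-0.75 ± 0.17) and Muc15 (-0.63 ± 0.20). The call of Muc15 was lost without p53- replicate 2 or 3 or p53- Rb- replicate 3. Factors of epithelial-mesenchymal transition and cadherins gave 8 risers of 28 and 1 faller, the factor Snai2 (-0.61 ± 0.17), a call lost without p53- replicate 3 or p53- Rb- replicate 1 or 3. The risers with the smallest p were Cdh6 (1.49 ± 0.16), Cdh5, Twist2 (1.08 ± 0.21), Foxc2 (1.12 ± 0.23) and Snai1 (0.99 ± 0.21), the latter 3 transcription factors.

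**Figure D3:**
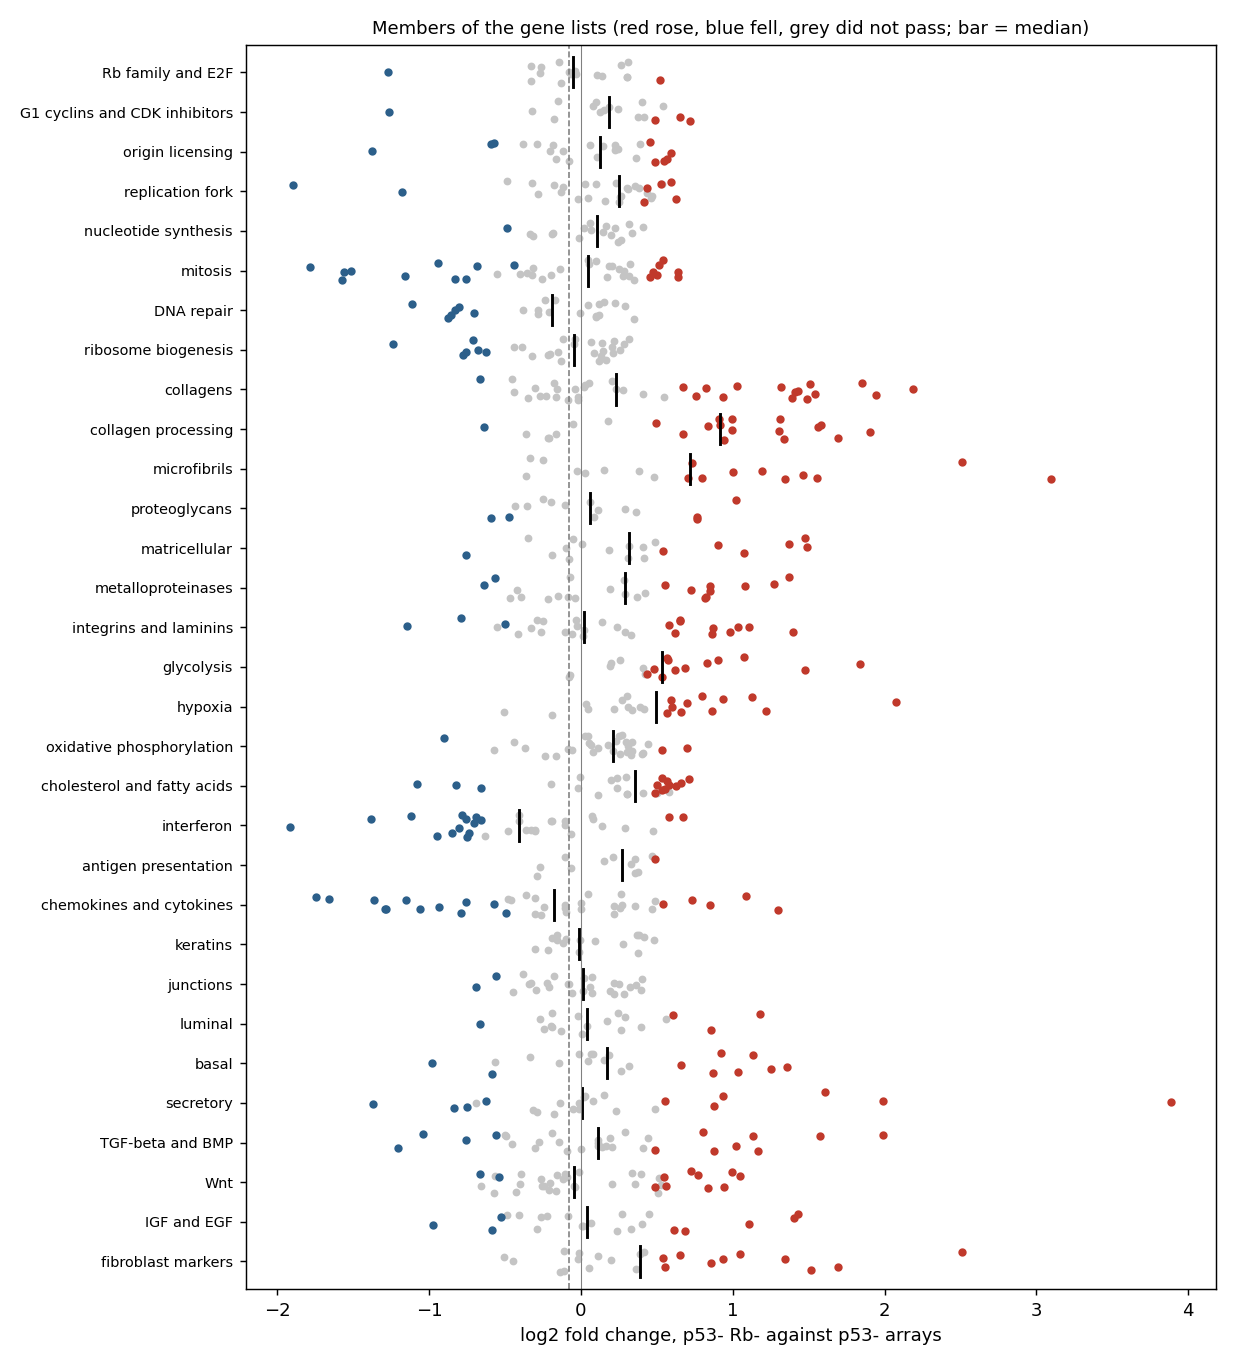
Log2 fold change of each measured member of 31 gene lists, p53- Rb- against p53- arrays; red points rose, blue points fell, grey points did not pass, black bars are list medians and the dashed line is the median of all genes. Collagen processing, with a median of 0.914, and microfibrils, with 0.716, lie to the right, and the interferon list, with -0.407, to the left.

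Glycolytic enzymes and transporters rose in 12 of 19 measured members, with 0 fallers, also unadjusted, and a median of 0.532. Aldoc, an aldolase, read 46.4, 78.05 and 59.1 in the p53- arrays and 262, 225 and 288 in the p53- Rb- arrays (1.84 ± 0.18, adjusted p = 7.60e-07), without overlap. Eno2, an enolase, rose by 1.48 ± 0.24, Slc16a3, which exports lactate, by 1.07 ± 0.20, and the phosphofructokinases Pfkl and Pfkp by 0.90 ± 0.16 and 0.83 ± 0.16. Hypoxia-induced genes other than glycolytic enzymes rose in 11 of 22 with 0 fallers (1 lower unadjusted) and a median of 0.493. Car9, a carbonic anhydrase that is a well-known target of the hypoxia-inducible factor, read 46.3, 38.9 and 28.1 in the p53- arrays and 232, 186 and 210.4 in the p53- Rb- arrays (2.08 ± 0.17, adjusted p = 8.25e-08). All p53- Rb- arrays lay far above, and the WT mean was 29.6. Bnip3, which removes mitochondria, rose by 1.13 ± 0.16, Stc1, a secreted glycoprotein, by 1.22 ± 0.18, Car12 by 0.93 ± 0.16, and Pdk1, which keeps pyruvate from mitochondria, by 0.66 ± 0.17, a call lost without p53- Rb- replicate 3. The glycolytic count was 7 without p53- replicate 1 or 3 or p53- Rb- replicate 3, and the hypoxia count 7 without p53- replicate 1 or p53- Rb- replicate 3.

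Of 31 oxidative phosphorylation genes 2 rose and 1 fell (9.68% passed, against 19.8% of all genes). The risers were Ndufs8 (0.70 ± 0.17) and Ndufv1 (0.54 ± 0.15), both of complex I, and the faller was Uqcrb of complex III (-0.90 ± 0.26). After centring 9 rose. Ndufv1 lost its call without p53- replicate 1 or 3, and Uqcrb without p53- replicate 1 or 3 or p53- Rb- replicate 3. Cholesterol and fatty acid synthesis genes gave 10 risers and 3 fallers among 26, with a median of 0.354. The mevalonate pathway was split: Mvd rose by 0.66 ± 0.16 and Pmvk by 0.71 ± 0.18, but Idi1, the isomerase that follows them, read 543, 769 and 532 in the p53- arrays and 274, 301 and 259.8 in the p53- Rb- arrays and fell (-1.08 ± 0.20, adjusted p = 0.000488). Tm7sf2, a sterol reductase, rose by 0.58 ± 0.15, and Elovl6, a fatty acid elongase, fell by 0.82 ± 0.21, as did Hmgcs1, which makes the mevalonate precursor, by 0.66 ± 0.20. The calls of Pmvk, Tm7sf2 and Elovl6 were lost without p53- Rb- replicate 2, 1 and 3, respectively, and that of Hmgcs1 without replicate 1 or 3 of either group. The risers numbered 4 without p53- replicate 1 or 3 or p53- Rb- replicate 1, 5 without p53- Rb- replicate 2 and 6 without p53- Rb- replicate 3.

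Of 33 interferon-induced genes measured, 13 fell and 2 rose, with a median of -0.407, against a background of 10.4% of genes that fell. Cxcl10, a chemokine for activated T cells, read 127, 174 and 128 in the p53- arrays and 25.98, 36.8 and 16.8 in the p53- Rb- arrays (-1.92 ± 0.22, adjusted p = 5.11e-06). Rsad2, the antiviral enzyme viperin, read 93.8, 98.9 and 97.3 in the p53- arrays and 30.6, 33.4 and 19.1 in the p53- Rb- arrays (-1.38 ± 0.18), and Ifit1, which binds foreign RNA, 49.95, 61.5 and 54.3 in the p53- arrays and 14.7, 33.7 and 7.14 in the p53- Rb- arrays (-1.12 ± 0.22). In each, replicate 3 was the lowest p53- Rb- array, and several values lay near or below the added constant of 16. Gbp3, a guanylate-binding protein, fell by 0.95 ± 0.23, a call lost without p53- Rb- replicate 3. Stat2, which carries the interferon signal to DNA, went the other way, reading 127, 146 and 137 in the p53- arrays and 242, 267 and 180.4 in the p53- Rb- arrays (0.67 ± 0.16, adjusted p = 0.00565). The count of fallers was 4 without p53- Rb- replicate 3, 8 without p53- replicate 3, 6 without p53- replicate 2 and p53- Rb- replicate 3 together, 6 with 1 added in place of 16, 9 with arrays centred, and 0 among genes at or above the median level, where the median of the members left lay 0.035 above that of all genes tested.

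The interferon-stimulated response element, read here as GAAA, any pair of bases and GAAA on either strand, is the word through which Stat2 complexes act. Stretches that hold it are shown in capitals for 3 genes that fell and for both that rose, from RefSeq promoters on GRCm38.p6 as above. They are Cxcl10 at chr5:92349053-92349139 (-), Rsad2 at chr12:26456523-26456612 (-), Ifit1 at chr19:34640745-34640853 (+), Stat2 at chr10:128270248-128270325 (+) and Bst2, which encodes the virus-restricting protein tetherin, at chr8:71537547-71537642 (-). Bst2 rose by 0.58 ± 0.20; the call was lost without p53- replicate 1 or 3 or p53- Rb- replicate 1 or 2. It holds 2 overlapping words and was chosen for its sites after its value was seen.
Cxcl10: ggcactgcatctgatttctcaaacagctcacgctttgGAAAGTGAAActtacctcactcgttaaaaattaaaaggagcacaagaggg
Rsad2: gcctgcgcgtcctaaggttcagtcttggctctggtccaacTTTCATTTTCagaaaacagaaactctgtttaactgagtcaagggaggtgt
Ifit1: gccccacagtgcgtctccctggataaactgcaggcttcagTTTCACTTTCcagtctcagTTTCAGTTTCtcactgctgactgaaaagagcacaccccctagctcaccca
Stat2: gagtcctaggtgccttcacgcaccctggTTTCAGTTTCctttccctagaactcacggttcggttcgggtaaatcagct
Bst2: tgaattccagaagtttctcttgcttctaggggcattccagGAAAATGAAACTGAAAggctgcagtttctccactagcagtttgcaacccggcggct

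The word was present in 531 of 15614 genes with a window (3.4%) and in 9 of 24 on the interferon list. Of the list's genes with a window, 6 of 9 fallers and 2 of 2 risers held it, so it was found in members that moved either way. Among all genes that fell, 62 of 1641 held it (3.78%), and among those that rose 49 of 1468 (3.34%).

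Cytokines and chemokines fell in 12 and rose in 5 of 38 measured. Il1a, the alarm cytokine interleukin 1 alpha, read 823, 558 and 827 in the p53- arrays and 229, 237 and 157 in the p53- Rb- arrays (-1.75 ± 0.21, adjusted p = 7.72e-06). Ccl5, a chemokine for T cells and monocytes, read 223, 251 and 178 in the p53- arrays and 65.3, 69.05 and 40.6 in the p53- Rb- arrays (-1.66 ± 0.21), and Cxcl5, a neutrophil chemokine, fell by 1.15 ± 0.17. Groups did not overlap in Il1a or Ccl5. Ccl9 rose, reading 44.5, 72.3 and 64.05 in the p53- arrays and 148, 187 and 176 in the p53- Rb- arrays (1.30 ± 0.17), as did Cxcl14 (1.09 ± 0.18), Cxcl12 (0.54 ± 0.19), Csf1 (0.73 ± 0.16) and Cx3cl1 (0.85 ± 0.17); the call of Cxcl12 was lost without p53- replicate 1 or 3 or p53- Rb- replicate 2 or 3. Antigen presentation genes gave 1 riser, the proteasome activator Psme1 (0.49 ± 0.15, adjusted p = 0.0224), and 0 fallers among 12, also unadjusted; its call was lost without p53- replicate 1 or 3 or p53- Rb- replicate 1 or 2.

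Signalling genes moved in both directions. Of 31 TGF-beta and BMP genes 8 rose (25.8%, against 9.36% of all genes) and 4 fell (12.9%, against 10.4%). Gdf10, a ligand of that family, read 11.04, 12.4 and 17.5 in the p53- arrays and 72.3, 88.2 and 159 in the p53- Rb- arrays (1.99 ± 0.20, adjusted p = 8.37e-07), and the follistatin-like protein Fstl1, Tgfb1 and Tgfb3 rose by 1.58 ± 0.22, 1.17 ± 0.16 and 1.13 ± 0.18, whereas Inhba, an activin subunit, fell (-1.20 ± 0.21), as did Tgfbr1 (-1.04 ± 0.23), Skil (-0.76 ± 0.17) and Bmp5 (-0.56 ± 0.19), the last of which lost its call without any 1 of 5 of the 6 arrays, p53- replicate 2 being the exception. In the Wnt list 9 of 37 rose and 2 fell, the ligands Wnt4 and Wnt7a (-0.54 ± 0.17), the call of Wnt7a being lost without replicate 2 or 3 of either group. The risers with the smallest p were Nkd2 (1.05 ± 0.16), the receptors Fzd1 (0.94 ± 0.16) and Fzd2 (0.84 ± 0.19), the antagonist Sfrp2 (0.99 ± 0.20) and the ligand Wnt5a (0.77 ± 0.19), whose call was lost without p53- replicate 1. Of 22 IGF and EGF family genes 5 rose and 3 fell. The IGF-binding proteins Igfbp6 and Igfbp5 rose by 1.43 ± 0.17 and 1.41 ± 0.20 and the growth factor Igf2 by 1.11 ± 0.21, and the EGF receptor family ligands Epgn and Nrg1 fell by 0.97 ± 0.20 and 0.58 ± 0.16. The receptors Erbb2 and Erbb3 rose by 0.69 ± 0.19 and 0.61 ± 0.19, and the RNA-binding protein Igf2bp3 fell by 0.53 ± 0.18; all 3 calls were lost without p53- replicate 1 or 3 or p53- Rb- replicate 3, those of Erbb3 and Igf2bp3 also without p53- Rb- replicate 1, and that of Igf2bp3 without p53- Rb- replicate 2. Among 42 Notch, ephrin and guidance genes 7 rose (16.7%) and 6 fell (14.3%). Slit3, a secreted guidance cue, read 172, 193 and 173 in the p53- arrays and 502, 518 and 809.7 in the p53- Rb- arrays (1.65 ± 0.18), and Sema3c, a semaphorin, 429, 456 and 399 in the p53- arrays and 141, 182 and 99.4 in the p53- Rb- arrays (-1.53 ± 0.21); both were without overlap. The Notch target Heyl rose by 2.02 ± 0.31 and the ligand Dll1 by 0.98 ± 0.19, and Sema6a fell by 1.11 ± 0.22. The guidance list had 12 risers without p53- replicate 2 and 3 fallers without p53- replicate 3 or p53- Rb- replicate 3; the IGF and EGF list had 3 risers without p53- replicate 1 or 3 or p53- Rb- replicate 3 and 1 faller without p53- Rb- replicate 1, where the call of Nrg1 was lost.

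The same change of the Rb label could be read in 6 arrays that the comparison above does not use, p53- Rb- Myc+ against p53- Myc+. These arrays were unlike the others in the markers of the labelled cell type. With Myc+, Krt8 had a mean of 50.3 where Rb was wild type and of 47.8 where it was knocked out, against 3529 and 3253 without Myc+, and Epcam had 10.3 and 11.6 against 1634 and 1682. Krt18, Epcam, Krt5 and Trp63 had p53- Myc+ means below the added constant of 16. The summed intensity of the 16 keratins was 288 to 397 and 890.2 to 948 in the Myc+ groups, against 17970 to 19000.0 and 17890 to 20190 in the groups without Myc+. Between arrays with and without Myc+, WT aside, r across genes was 0.811 to 0.865. The part of this difference in what follows was not tested. In the Myc+ pair 935 genes passed (4.69%): 656 rose (3.29%) and 279 fell (1.4%). Rb1 had -0.57 ± 0.16, adjusted p = 0.0453 and fell there too. Of the 1867 genes that rose without Myc+, 181 rose and 95 fell with it, and 58.5% had a log2 fold change above 0, against 58.8% of all genes. Of the 2083 that fell, 25 fell and 52 rose with Myc+, and 34.6% had a log2 fold change below 0, against 41.2% of all genes. The difference of both changes was tested as an interaction in the same fit: 2719 genes passed it (13.6%), 1751 with a higher change with Myc+ (8.78%) and 968 with a lower one (4.86%). With arrays centred on their medians this split turned, to 841 higher and 2076 lower. Among the 2719 were 752 of the 1867 risers, 1180 of the 2083 fallers, 268 of the 331 genes that rose at least 2-fold and 409 of the 440 that fell at least 2-fold. These 4 counts take genes selected on the change that enters the difference and are a description.

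Of the 24 genes with the highest and lowest change, Lbp alone did not pass the interaction: it changed by 2.51 ± 0.22 with Myc+ (difference 0.03, adjusted p = 0.963). Serping1 rose in both, and by more with Myc+ (4.39 ± 0.18; difference 1.55, adjusted p = 0.000278). Serpina3n (1.37 ± 0.23) and Hp (0.87 ± 0.19) rose in both and by less with Myc+. Mfap4 reversed: it fell with Myc+ (-2.62 ± 0.24, adjusted p = 5.79e-08). Muc1 had group means of 8.79 (p53- Myc+) and 10.2 (p53- Rb- Myc+), both below the added constant, and the same held for Scnn1a, Ndufa4l2, Col15a1 and Mia. For these 5 genes a change with Myc+ could not be read, and the difference mostly restates the change without it. Among the lower genes, Slfn9 fell in both (-1.07 ± 0.17 with Myc+).

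**Figure D4:**
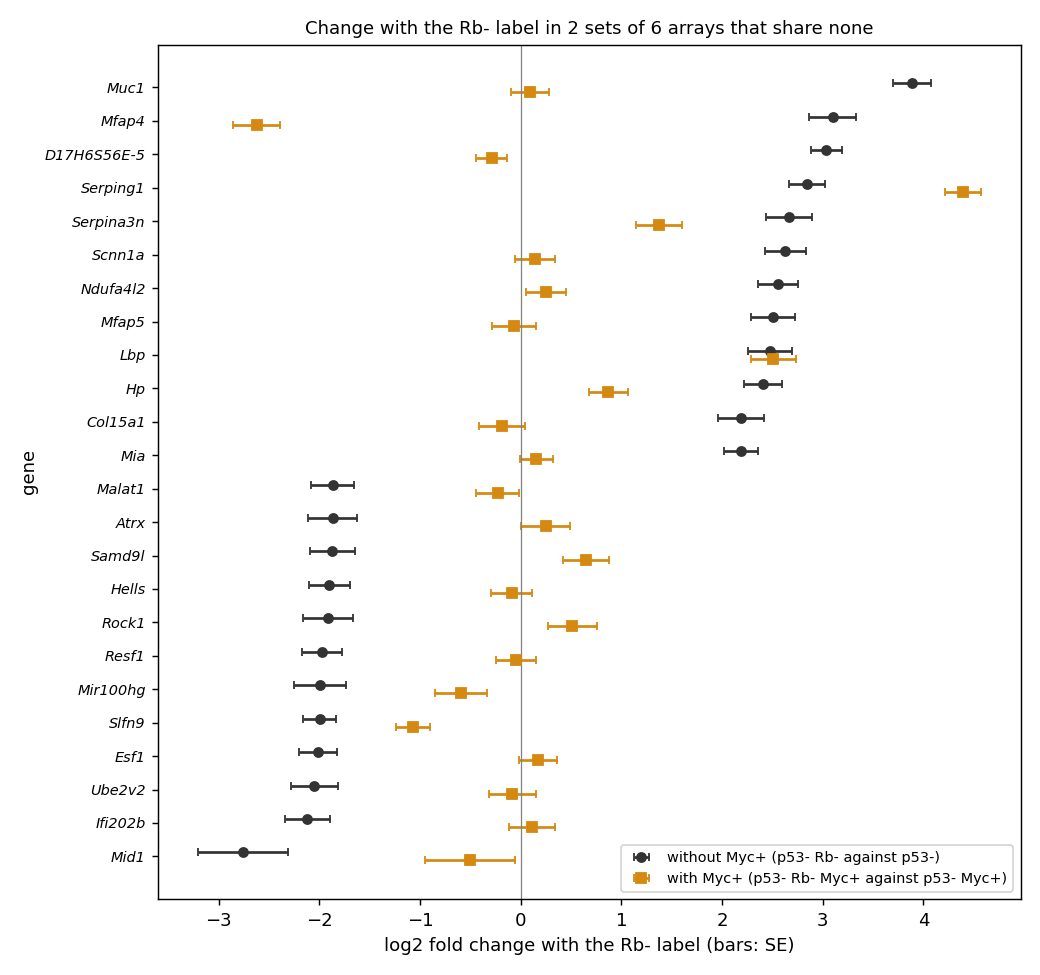
Log2 fold change with the Rb- label (bars are standard errors) of the 12 highest and 12 lowest genes, in p53- Rb- against p53- arrays (dark circles) and in p53- Rb- Myc+ against p53- Myc+ arrays (orange squares). Lbp lies at about the same place in both, Serping1 is higher with Myc+, and Mfap4 changes sign.

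Some genes of the lists passed in both settings. Cdkn2c rose with Myc+ as well (1.21 ± 0.16, adjusted p = 2.66e-05; difference 0.49, adjusted p = 0.169), as did Cdkn1c (0.72 ± 0.17, adjusted p = 0.0099), Stat2 (0.98 ± 0.16, adjusted p = 0.000346) and Ccl9 (1.41 ± 0.17, adjusted p = 4.40e-06; difference 0.11, adjusted p = 0.8). Ccnd2 rose without and fell with Myc+ (-0.79 ± 0.16, adjusted p = 0.00415; difference -1.44, adjusted p = 0.000242), and so did Mmp2 (-1.26 ± 0.17, adjusted p = 2.70e-05) and Loxl3 (-1.03 ± 0.17, adjusted p = 0.000419). The lists named for their shares above differed too. Of the collagen processing genes 1 rose (Plod2) and 3 fell (P4ha3, Loxl3 and P3h3) with Myc+, and 13 of 22 passed the interaction, all lower. Microfibril genes gave 1 riser and 5 fallers, glycolytic genes 1 and 0, and interferon genes 4 risers and 0 fallers. Of the 33 interferon genes 14 passed the interaction, all higher. These lists are named here for their shares without Myc+, and that change enters the difference. The direction of the difference is thus largely fixed by the choice and is a description. Of all genes 13.6% passed the interaction. No licensing, fork, mitotic or repair gene passed with Myc+ among 24, 30, 37 and 22 (0, 0, 2 and 0 unadjusted), and 2, 2, 5 and 2 of them passed the interaction.

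Set beside WT cells, the p53- Rb- arrays differed in 2903 genes (14.6%), of which 2155 were higher (10.8%) and 748 lower (3.75%). The p53- arrays differed from WT in 5780 genes (29%), of which 3843 were higher (19.3%) and 1937 lower (9.72%). These comparisons share arrays with the main one, so values are given side by side only. Hells was 2.03 ± 0.21 in p53- and 0.13 ± 0.21 in p53- Rb- arrays against WT, Cxcl10 was 1.42 ± 0.22 and -0.50 ± 0.22, and Aldoc -1.58 ± 0.18 and 0.26 ± 0.18. For these 3 genes the p53- Rb- arrays did not differ from WT past the threshold, and the p53- arrays did. In Car9 the values were 0.23 ± 0.17 and 2.31 ± 0.17, in Itga5 -0.10 ± 0.16 and 1.29 ± 0.16, and in Loxl3 -0.07 ± 0.17 and 1.84 ± 0.17; here the p53- arrays did not pass against WT and the p53- Rb- arrays did. Smc4 was above WT in both, at 2.45 ± 0.19 and 0.94 ± 0.19. Of the 12 lowest genes, Ube2v2, Esf1, Mir100hg, Resf1, Rock1, Hells, Samd9l and Atrx passed against WT in p53- but not in p53- Rb- arrays. The same held for Muc1, Serpina3n, Lbp and Hp of the 12 highest. D17H6S56E-5, Mia and Mid1 passed against WT in p53- Rb- arrays only. The rest of the 12 highest and 12 lowest passed in both groups, but in opposite directions. Mfap4, Serping1, Scnn1a, Ndufa4l2, Mfap5 and Col15a1 were below WT in p53- and above it in p53- Rb- arrays. Ifi202b, Slfn9 and Malat1 were above WT in p53- and below it in p53- Rb- arrays. All of these genes were chosen for the difference between the p53- and p53- Rb- groups. Of the 37 mitotic genes 32 were higher in p53- Rb- than in WT arrays, and of the 30 fork genes 21, with none lower in either list. Summed intensity of the mitotic genes was 7044 to 7703 in WT, 14470 to 16550 in p53- and 12950 to 15760 in p53- Rb- arrays. For the fork genes it was 5242 to 5716, 7615 to 8386 and 8089 to 8735. The sums of both lists were thus above WT in the p53- arrays too.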

How the data were processed

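Total RNA of cultured cells, labelled by WT-Ovation Pico amplification per the labels' protocols, was hybridised to Affymetrix Mouse Gene arrays, 1 per sample and 3 per group. The authors deposited 1 linear intensity per probe set, for which the submitters' processing notes name Affymetrix Expression Console 1.1. How probe sets were summarised and arrays scaled is not given in the sources used here. Over all arrays, the 35556 intensities per array ran from 4.11e-05 to 8348, with no negative value. Precision is limited by the number of arrays. A batch or scan date was not found in the labels, nor whether control cultures received a control virus.

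Of 35556 probe sets, 21789 carried 1 gene symbol in the platform annotation, 1621 carried several and 12146 were not listed; only the first were used. Where a gene had several, the one with the highest mean over 15 arrays stood for it, giving 19938 genes. Log2(intensity + 16) of all 15 arrays was fitted as 5 group means with limma 3.58.1 (lmFit, eBayes) in R 4.3.3, with 10 residual and 11.78 prior degrees of freedom; tests are 2-sided with Benjamini-Hochberg adjustment over all genes and a threshold of 0.05. The fit was also run on simulated data with independent noise in each gene and array. Such data lack the order of arrays within groups described above, so the run cannot show how that order affects the calls. The same fit gave p53- Rb- Myc+ against p53- Myc+, the difference of both Rb changes, and both groups against WT.

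Named genes are Rb1, the 12 highest and 12 lowest passing genes that reach the median level and whose arrays do not overlap, and up to 5 members per list with the smallest p, or any member of the Rb family and G1 lists. Defining cell type markers were also named, and members that complete a count of 5 or fewer were named after their values were seen. The genes, 38 lists (918 of 968 entries measured) and tests were chosen with earlier results of these data known, so a list's direction is not independent evidence. Of the X- and Y-linked list, Xist fell (-1.57 ± 0.25) and the other 5 did not pass. A change between groups cannot check the label female, and that label was not tested. Promoters matched 15614 genes by symbol.

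Same-number arrays of p53- and p53- Rb- deviated with r = 0.204, -0.308 and -0.375, of mixed sign, so the numbers were not taken to pair them. Arrays of unlike number did deviate together in part. The r was 0.414 for p53- replicate 2 with p53- Rb- replicate 3, and 0.369 for p53- replicate 3 with p53- Rb- replicate 2. In the Myc+ groups same-number arrays had r above 0 (0.102, 0.192 and 0.379). Any such pairing is read from values alone, and its source was not tested. Alternatives were other constants, scalings, filters, probe set rules, weights and priors, the replicate block, and leaving out single arrays.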

Additional observations from a re-analysis of the deposited data

Results flagged for a closer look

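The change with the Rb- label differed between cells without and with the MYC retrovirus in 2719 genes by the interaction test of limma, adjusted over all genes. All values below are the change with Myc+ minus the change without it, on the log2 scale. For Rb1 the difference was 0.70, the fall being smaller with Myc+, where the p53- Myc+ mean was 36.4 against 161.5 in p53- arrays.

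Among genes that rose without Myc+, the difference was -3.79 for Muc1, -5.72 for Mfap4, -3.32 for D17H6S56E-5, -1.29 for Serpina3n, -2.49 for Scnn1a, -2.31 for Ndufa4l2, -2.57 for Mfap5, -1.54 for Hp, -2.37 for Col15a1 and -2.03 for Mia. For Muc1, Scnn1a, Ndufa4l2, Col15a1 and Mia both Myc+ means were below the added constant of 16, so these differences mostly restate the change without Myc+. Serping1, at 1.55, was the 1 of these risers whose change was larger with Myc+. Among genes that fell without Myc+, it was 2.25 for Mid1, 2.23 for Ifi202b, 1.96 for Ube2v2, 2.18 for Esf1, 0.93 for Slfn9, 1.40 for Mir100hg, 1.93 for Resf1, 2.42 for Rock1, 1.81 for Hells, 2.52 for Samd9l, 2.11 for Atrx and 1.64 for Malat1. These genes were chosen for their change without Myc+, which enters the difference. Of the other 205 genes that the rule names, 107 passed the same test, against 13.6% of all genes. Apart from the Rb family and G1 lists, they too were named for a small p in the change without Myc+. That count is therefore also a description.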

How the results depend on the processing

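The p53- Rb- against p53- count of 3950 ranged from 2098 to 4725 when 1 array was left out, that of the Myc+ pair from 649 to 867, that of the difference of both Rb changes from 1762 to 3234 and that of p53- Rb- against WT from 1697 to 3167. Beside the arrays named in the report, the difference gave 1762 without p53- replicate 3 and 1795 without p53- Rb- Myc+ replicate 2, and the comparison with WT gave 1700 without WT replicate 2, 1736 without p53- Rb- replicate 1 and 1697 without p53- Rb- replicate 2. Array weights raised the counts to 8518, 5404 (difference) and 5254 (against WT); p53- Rb- replicate 1 then weighed 5.07 and p53- replicate 2 0.481. Leaving out p53- replicate 2 and p53- Rb- replicate 3 together, chosen after seeing the data, left 2676. With arrays centred, 28.8% of the genes passing the difference were higher, against 64.4%, and with quantile normalization 53.7%; the shares higher with the Rb- label in the Myc+ pair were 57.1% and 59.4% against 70.2%, and against WT 75.2% and 58.8% against 74.2%. The cause of these moves was not tested.

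With the replicate block the counts were 4011, 931, 2780 and 2937 for the 4 comparisons, and the block moved none of them by over 1.5 times. Of 208 named genes that passed, 138 kept the call in each alternative that measured them (111 in 17 alternatives and 27 in 16, being left out of the one with genes at or above the median level), 70 lost it in at least 1 and 0 changed direction, and 29 named genes that did not pass gained a call in some.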
